A study of Homo sapiens with 6 samples.

Results

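The genes described here are 56 genes of DNA damage signalling and repair, chosen by name from the 58302 genes of a table of raw counts. All 56 passed the filter on low counts and were among the 15572 genes tested. The libraries came from MDA-MB-231-DR, a line made resistant to doxorubicin from MDA-MB-231, itself a breast cancer line that is triple-negative, with 3 control libraries and 3 libraries of cells treated with CYT (cyperotundone, a sesquiterpenoid of Cyperus rotundus). Every library therefore came from resistant cells, the parental line was not part of the comparison, and according to the study's methods the line was kept with doxorubicin at a low level. The CYT dose and time of these libraries, and whether doxorubicin was present during the treatment, are not given in the sources used here. The labels do not say whether replicates were separate cultures, so p-values measure the spread between these samples, which may be technical.

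Broken DNA is sensed by the kinases ATM and ATR, whose signal passes through mediator proteins on chromatin to the effector kinases CHEK1 and CHEK2. Double-strand breaks are then rejoined directly by end joining or copied from the sister chromatid by homologous recombination, while single-strand breaks, interstrand crosslinks, mismatched bases and bulky adducts each have a pathway of their own. Doxorubicin traps topoisomerase II on DNA and leaves double-strand breaks, so these pathways are often studied in cells that resist it.

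Of the 56 genes, 10 were lower and 0 were higher in CYT-treated than in control cells with an adjusted p under 0.05 in edgeR's quasi-likelihood test. The 10 lower genes were 17.9% of the members, beside 12.9% of all genes tested that were called lower, and the 0 higher genes stood beside 15.7% called higher. At an unadjusted p under 0.05, edgeR gave 4 higher (7.14%, beside 21.5% of all genes tested) and 14 lower members (25.0%, beside 19.4%). DESeq2 called 2 higher (3.57%, beside 14.8%) and 12 lower (21.4%, beside 10.9%) at its adjusted p. Limma on FPKM called 0 higher, beside 15.2% with log2(FPKM + 1) and 15.7% with log2(FPKM + 0.1). The 10 genes were 2.14-fold to 4.93-fold lower in the fit, and all 10 also passed the criterion of an absolute log2 fold change over 1. Of all genes tested, 27.4% were called and passed it, in either direction. The median log2 fold change of the 56 genes was -0.22, with 34 genes below 0 and 22 above, and the median of all genes tested was 0.0064. In 17 members (30.4%) every CYT library lay below every control library, beside 22.7% of all genes tested, and in 7 members (12.5%) every CYT library lay above, beside 23.4%. The called genes came from single-strand break repair (PARP2 and LIG3), homologous recombination (BLM, RAD51D and RAD52), nucleotide excision repair (ERCC2 and ERCC1), damage signalling (CHEK2 and NBN) and the Fanconi anaemia pathway (FANCG). In bulk RNA, fewer cells of a type and less RNA per cell cannot be told apart.

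**Figure D1:**
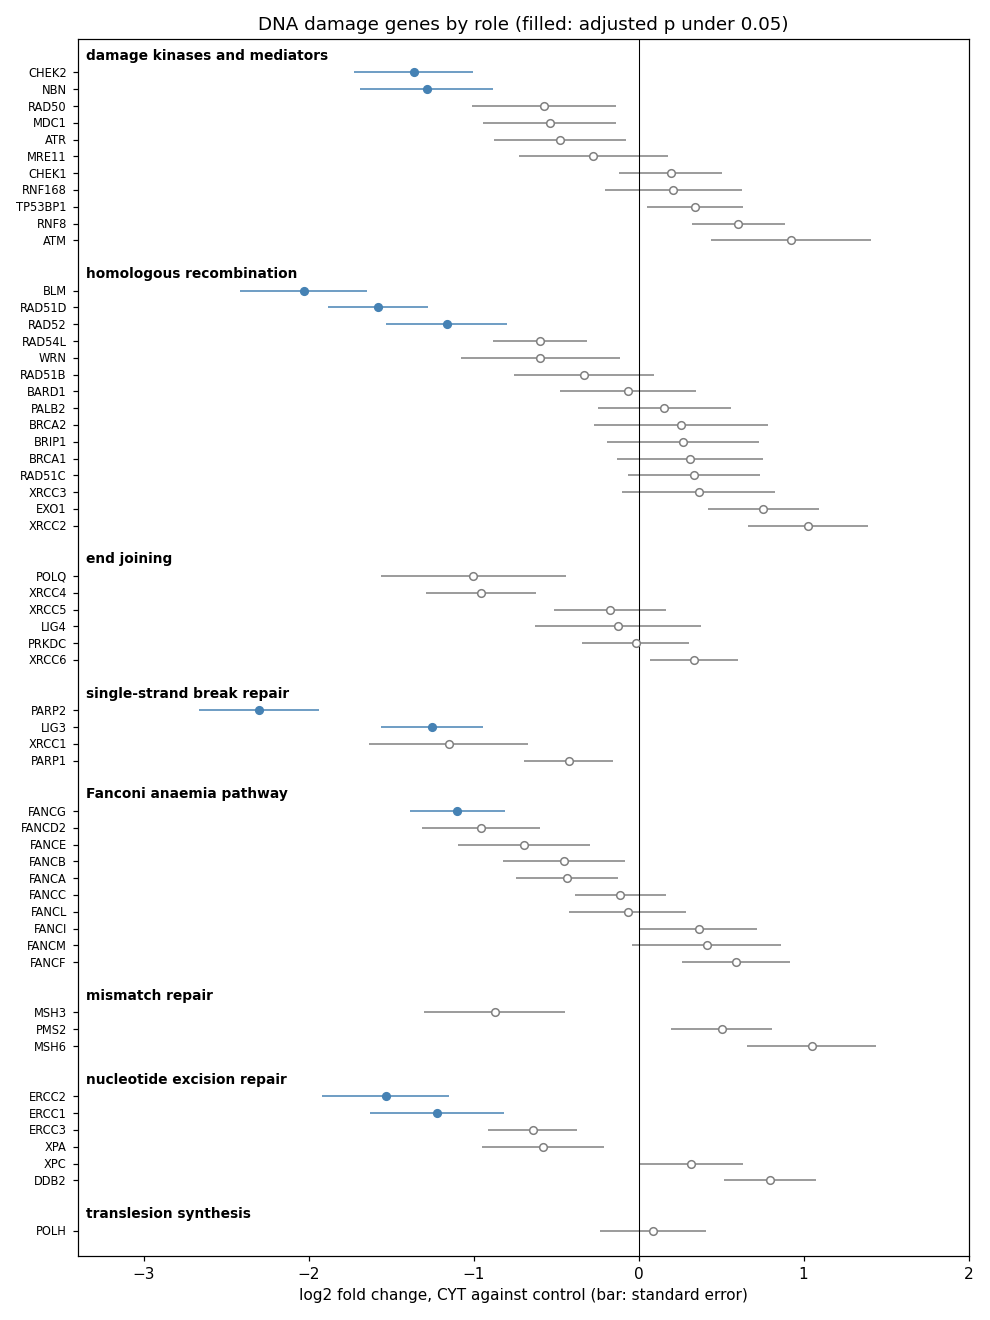
Log2 fold change of CYT against control for the 56 genes, grouped by role (x axis, log2 scale; bars are standard errors of the edgeR fit; filled points have an adjusted p under 0.05). The 10 filled points all lie below -1, from -2.30 for PARP2 to -1.10 for FANCG, and no gene with a positive value is filled.

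The 6 libraries held between 13056270 and 17770102 counts each, with control totals of 14050849 or more, and member counts in single libraries ran from 13 to 18798. The 2 libraries numbered 2 stood apart from the others of their groups in a way that followed GC content, so results are also given without CYT replicate 2. Of 7 marker genes of the line, 2 were called lower (VIM and AXL), with a summed level of 5298 to 6747 CPM in control and 3418 to 4052 CPM in CYT libraries. The 7 luminal markers summed to 213 to 423 CPM in control and 25.0 to 50.2 CPM in CYT libraries. KRT19, which made up most of the sum in the control libraries, was called lower (-3.45), while FOXA1 (0.42) and GATA3 (-0.73) were not called, and PGR was at no more than 3 counts in any library. Fibroblast markers summed to 19.1 to 35.8 CPM in control and 3.98 to 6.40 CPM in CYT libraries, with PDGFRB (-2.54) and COL1A1 (-2.16) called lower and DCN and LUM at no more than 3 counts. Of the leukocyte markers, CD14 was called higher (log2 fold change 2.43) and CD3E was at no more than 3 counts in any library. Endothelial markers summed to 1.55 to 3.30 CPM in control and 1.83 to 3.49 CPM in CYT libraries. The part of these lists in the results on repair genes was not tested.

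The start regions of 5 members are shown. PARP2 and BLM had the largest falls, and XRCC2 the largest positive value in homologous recombination. FANCD2 and RAD51C each start within 1000 bases of a gene on the other strand that was called higher. The sequences are from RefSeq (GRCh38.p14), run 5′ to 3′ on the strand of the gene and leave out annotated untranslated bases. PARP2 is at chr14:20343385-20343581 (plus strand), BLM at chr15:90717096-90717326 (plus), XRCC2 at chr7:152676166-152676391 (minus), FANCD2 at chr3:10026187-10026413 (plus) and RAD51C at chr17:58692323-58692572 (plus). Capitals mark the motifs searched on either strand, which were the CCAAT box (CCAAT), an E2F-like motif (TTTNNCGC), an ETS motif (CCGGAAG), the cyclic AMP response element (TGACGTCA), the GC box (GGGCGG) and the CHR element (TTTGAA).
PARP2: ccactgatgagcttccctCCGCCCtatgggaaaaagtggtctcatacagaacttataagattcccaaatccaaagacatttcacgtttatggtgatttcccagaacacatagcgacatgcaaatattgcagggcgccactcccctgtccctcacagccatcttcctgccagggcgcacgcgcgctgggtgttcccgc
BLM: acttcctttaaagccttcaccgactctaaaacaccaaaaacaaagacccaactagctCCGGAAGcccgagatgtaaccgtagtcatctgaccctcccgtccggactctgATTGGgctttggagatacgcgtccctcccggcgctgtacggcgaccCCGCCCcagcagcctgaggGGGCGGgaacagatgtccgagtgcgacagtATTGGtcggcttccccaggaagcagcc
XRCC2: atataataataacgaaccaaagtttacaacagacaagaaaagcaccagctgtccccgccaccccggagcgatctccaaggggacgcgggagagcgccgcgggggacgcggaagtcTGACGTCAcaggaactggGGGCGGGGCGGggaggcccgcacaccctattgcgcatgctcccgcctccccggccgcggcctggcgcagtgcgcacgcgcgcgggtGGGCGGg
FANCD2: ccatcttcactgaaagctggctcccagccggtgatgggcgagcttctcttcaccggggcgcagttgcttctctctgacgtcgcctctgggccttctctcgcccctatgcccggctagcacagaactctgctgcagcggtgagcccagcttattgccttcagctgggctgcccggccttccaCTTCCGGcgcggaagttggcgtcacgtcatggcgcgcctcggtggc
RAD51C: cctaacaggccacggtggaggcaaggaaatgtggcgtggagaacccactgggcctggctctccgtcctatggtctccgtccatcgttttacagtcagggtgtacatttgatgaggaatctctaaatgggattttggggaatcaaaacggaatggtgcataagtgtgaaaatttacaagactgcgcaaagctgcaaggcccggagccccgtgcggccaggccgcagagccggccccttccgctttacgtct
BLM held an ETS motif, 2 GC boxes and 2 CCAAT boxes, XRCC2 held a cyclic AMP response element and 3 GC boxes, FANCD2 held an ETS motif and PARP2 a GC box, and none of these letters was found in the RAD51C stretch. PARP2 also held a cyclic AMP response element in the 53 bases nearest its start, which are left out above and are part of the 250 bases counted next. Of the 56 genes, 51 matched a RefSeq start. In the 250 bases before it, the ETS motif was found in 14 of 51 members (27.5%) and in 8.82% of 27305 starts. The 27305 starts are 1 for each gene of the RefSeq set, without a filter on expression, while every member passed the filter on low counts. The shares are therefore not from like sets of genes. The GC box was found in 36 members (70.6%, against 42.3%), the CCAAT box in 21 (41.2%, against 33.0%), the E2F-like motif in 7 (13.7%, against 5.93%), the cyclic AMP response element in 4 (7.84%, against 1.77%) and the CHR element in 6 (11.8%, against 13.6%). Of the 9 matched genes that were called lower, 1 held the ETS motif and 6 the GC box. These are matches of letters and show no binding.

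Single-strand break repair had the lowest median of the role groups (log2 fold change -1.20), with all 4 members below 0. Of the 4, 2 were called lower, beside 12.9% of all genes tested. PARP2, which senses single-strand breaks and builds poly(ADP-ribose) beside PARP1 (hg38 chr14:20343582-20357905, plus strand), had the largest fall of the 56 genes. PARP2 measured 22.1, 16.8 and 26.0 CPM in control replicates 1 to 3 and 4.50, 5.54 and 3.09 CPM in CYT replicates 1 to 3. The lowest control library was thus 16.8 CPM and the highest CYT library 5.54 CPM. PARP2 was 4.93-fold lower in the fit (mean CPM 21.6 ± 4.58 against 4.38 ± 1.23, SD, n = 3 each), with a log2 fold change of -2.30 (SE 0.36, edgeR adjusted p = 0.00222). PARP1, which does most of the poly(ADP-ribose) synthesis after damage and is the most abundant member of the group per length (24.5 FPKM on average), measured 313, 226 and 284 CPM in control and 182, 207 and 224 CPM in CYT libraries. The groups did not overlap for PARP1, yet its log2 fold change of -0.42 was not called (edgeR adjusted p = 0.271).

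LIG3, the ligase that seals the repaired nick (hg38 chr17:34980494-35009743, plus strand), measured 45.2, 33.2 and 32.3 CPM in control and 18.4, 12.9 and 15.1 CPM in CYT libraries. Every CYT library lay below every control library. LIG3 fell 2.38-fold (log2 fold change -1.25, SE 0.31, edgeR adjusted p = 0.0147), and the call was lost without control replicate 1 (adjusted p = 0.0623) and without CYT replicate 3 (adjusted p = 0.0557). RFFL, a gene on the other strand that overlaps LIG3, had 75.1% as many counts as LIG3 and was also called lower (-1.55). The use of strand in counting is not stated, so reads of the overlapping stretch cannot be assigned to either gene. XRCC1, the scaffold that carries LIG3 to the nick, had a log2 fold change of -1.15 (SE 0.48, edgeR adjusted p = 0.103) with overlapping groups, and it was called with the replicate number as a block (-1.08, adjusted p = 0.0158) and without control replicate 2 (-1.51, adjusted p = 0.0355).

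In homologous recombination 3 of 15 genes were called lower, beside 12.9% of all genes tested. The median log2 fold change was 0.16, with 8 of the 15 above 0. BLM, the helicase that dissolves joined recombination intermediates (hg38 chr15:90717327-90816165, plus strand), measured 16.8, 27.7 and 19.2 CPM in control and 4.15, 7.39 and 4.04 CPM in CYT libraries. The groups were far apart, with the highest values of both groups in the libraries numbered 2. BLM fell 4.08-fold (log2 fold change -2.03, SE 0.38, edgeR adjusted p = 0.00456). WRN, the related helicase mutated in Werner syndrome, measured 10.8, 14.4 and 10.8 CPM in control and 5.91, 14.2 and 3.65 CPM in CYT libraries, and was not called (-0.60, edgeR adjusted p = 0.384). The value of WRN turned on 1 library, since it was called lower without CYT replicate 2 (-1.33, edgeR adjusted p = 0.0209).

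RAD51D, which acts in a complex that prepares single-stranded DNA for strand exchange (hg38 chr17:35092208-35121522, minus strand), measured 21.7, 19.8 and 19.4 CPM in control and 5.84, 7.60 and 6.90 CPM in CYT libraries. Replicates within each group lay close together. RAD51D fell 2.99-fold (log2 fold change -1.58, SE 0.31, edgeR adjusted p = 0.00497). XRCC2, the partner that binds RAD51D in the same complex, had the opposite sign. XRCC2 measured 10.6, 19.7 and 13.6 CPM in control and 23.8, 40.8 and 24.9 CPM in CYT libraries. All CYT libraries of XRCC2 were above all control libraries, and its log2 fold change of 1.03 (SE 0.36) missed the threshold (edgeR adjusted p = 0.0603) but passed it with the replicate block (adjusted p = 0.0100) and without control replicate 2 (1.28, adjusted p = 0.0477). With any other library left out XRCC2 was not called, with adjusted p of up to 0.201, and it was at 0.72 (adjusted p = 0.111) without CYT replicate 2. The related genes RAD51B (-0.33), RAD51C (0.34) and XRCC3 (0.36) had overlapping groups. XRCC3 had 17.1 CPM in CYT replicate 2 against 67.0 and 66.8 CPM in CYT replicates 1 and 3, and was called higher without that library (0.77, edgeR adjusted p = 0.0282).

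RAD52, which anneals single strands (hg38 chr12:912077-990053, minus strand), measured 6.25, 9.14 and 9.11 CPM in control and 4.50, 3.55 and 2.85 CPM in CYT libraries. The groups did not overlap, at levels where the fewest counts in a library were 36. RAD52 fell 2.24-fold (log2 fold change -1.16, SE 0.37, edgeR adjusted p = 0.0394), and leaving out any 1 library other than CYT replicate 2 ended the call, with adjusted p from 0.0509 to 0.135. RAD54L, the motor protein of strand exchange, was the member of the group with the highest level per length (5.67 FPKM) and measured 45.5, 37.3 and 31.8 CPM in control and 26.9, 22.7 and 26.2 CPM in CYT libraries. RAD54L did not overlap between groups but was not called (-0.60, edgeR adjusted p = 0.149). The breast cancer susceptibility genes and their partners gave small values with overlapping groups, at 0.31 for BRCA1, 0.26 for BRCA2, 0.16 for PALB2, -0.06 for BARD1 and 0.27 for BRIP1. Their standard errors ran from 0.40 to 0.53, wider than each value. EXO1, a nuclease that resects break ends, was higher in every CYT library (0.76) without a call (edgeR adjusted p = 0.119).

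**Figure D2:**
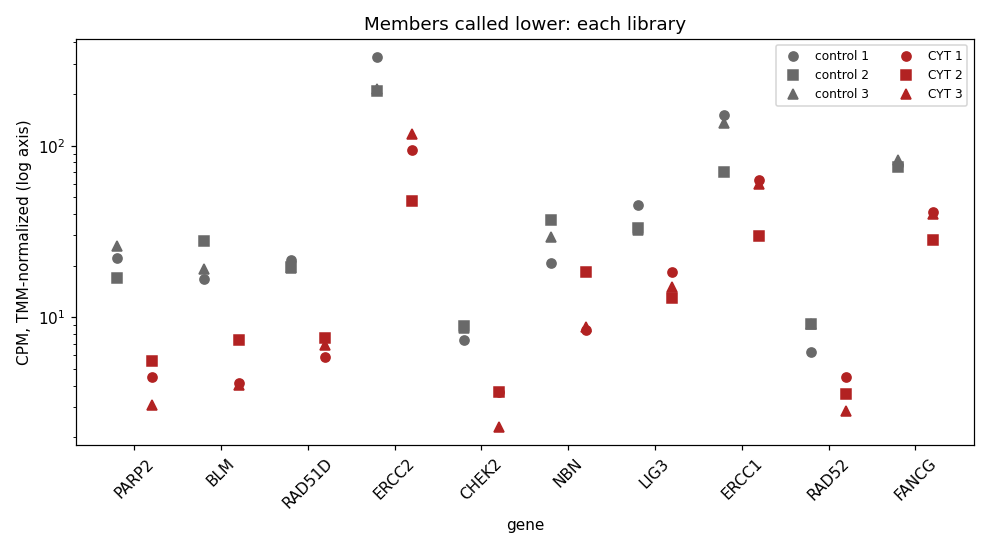
Level of each of the 10 genes called lower in every library (y axis, TMM-normalized CPM on a log axis; grey, control; red, CYT; circles, squares and triangles are replicates 1, 2 and 3). In each gene the 3 CYT libraries lie below the 3 control libraries, as in PARP2, where the lowest control library had 16.8 CPM and the highest CYT library 5.54 CPM.

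Among the 11 kinases and mediators 2 genes were called lower, beside 12.9% of all genes tested. CHEK2, the effector kinase below ATM (hg38 chr22:28687743-28742422, minus strand), measured 7.36, 8.87 and 8.68 CPM in control and 3.66, 3.69 and 2.30 CPM in CYT libraries. All control libraries lay above 7 CPM and all CYT libraries below 4 CPM. CHEK2 fell 2.57-fold (log2 fold change -1.36, SE 0.36, edgeR adjusted p = 0.0197), a call that was lost without control replicate 3 (adjusted p = 0.0652) or CYT replicate 3 (0.0779). CHEK1, the effector kinase below ATR, did not pass the test (0.20, edgeR adjusted p = 0.673). HSCB, which overlaps CHEK2 on the other strand and starts 391 bases from its start, was called higher (1.51). It had 534% as many counts as CHEK2, so the level of CHEK2 is uncertain.

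NBN, a subunit of the MRE11-RAD50-NBN complex that binds broken ends (hg38 chr8:89933336-90003228, minus strand), measured 20.7, 36.9 and 29.5 CPM in control and 8.44, 18.5 and 8.80 CPM in CYT libraries. The groups did not overlap, although CYT replicate 2 came near control replicate 1. NBN fell 2.44-fold (log2 fold change -1.29, SE 0.40, edgeR adjusted p = 0.0396), and the call was lost without control replicate 2 or 3 or CYT replicate 1 or 3, with adjusted p from 0.0956 to 0.128. The other subunits were not called, with RAD50 at -0.57 and MRE11 at -0.27. DECR1, which overlaps NBN on the other strand, was not called (0.60). It had 240% as many counts as NBN, so the level of NBN is uncertain. ATM had 39.6 CPM in CYT replicate 2 against 15.1 and 12.1 CPM in CYT replicates 1 and 3, and its log2 fold change of 0.92 (edgeR adjusted p = 0.182) became 0.20 without that library. RNF8, a ubiquitin ligase that marks chromatin at breaks and the member of this group with the highest level per length (4.60 FPKM), measured 42.5, 39.0 and 39.0 CPM in control and 57.0, 74.3 and 52.0 CPM in CYT libraries. RNF8 did not overlap between groups and was not called (0.60, edgeR adjusted p = 0.140). ATR (-0.48), MDC1 (-0.54), RNF168 (0.21) and TP53BP1 (0.34) had overlapping groups.

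Nucleotide excision repair had 2 of 6 genes called lower, beside 12.9% of all genes tested, and a median log2 fold change of -0.61. ERCC2, the XPD helicase of the general factor TFIIH and the member of the group with the highest level per length (18.7 FPKM; hg38 chr19:45349837-45370918, minus strand), measured 328, 208 and 214 CPM in control and 95.1, 47.4 and 117 CPM in CYT libraries. Control replicate 1 was the highest library and CYT replicate 2 the lowest. ERCC2 fell 2.89-fold (log2 fold change -1.53, SE 0.38, edgeR adjusted p = 0.0160), and without control replicate 1 it was -1.31 with an adjusted p of 0.0615. ERCC3, the XPB helicase of the same factor, was lower in every CYT library but not called (-0.64, edgeR adjusted p = 0.103). ERCC1, which cuts the damaged strand together with the nuclease XPF (hg38 chr19:45407333-45478828, minus strand), measured 151, 70.0 and 136 CPM in control and 63.5, 29.8 and 59.9 CPM in CYT libraries. Every CYT library lay below every control library, and control replicate 2 was nearest. ERCC1 fell 2.33-fold (log2 fold change -1.22, SE 0.41, edgeR adjusted p = 0.0480), close to the threshold, and the call held only when control replicate 2 was the library left out, with adjusted p from 0.0543 to 0.150 in the other cases. FOSB, an immediate early gene that overlaps the ERCC1 locus on the other strand, rose by a log2 fold change of 7.29 and had 144% as many counts as ERCC1, so the level of ERCC1 is uncertain.

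None of the damage recognition genes of this pathway was called in either direction. DDB2, which finds ultraviolet lesions in chromatin, measured 21.2, 22.9 and 26.3 CPM in control and 40.1, 36.6 and 45.7 CPM in CYT libraries. DDB2 was higher in every CYT library, and its log2 fold change of 0.80 (SE 0.28) narrowly missed the threshold (edgeR adjusted p = 0.0584) but passed it with the replicate block (adjusted p = 0.0247) and without CYT replicate 2 (0.86, adjusted p = 0.0248). XPC was also higher in every CYT library without a call (0.32, edgeR adjusted p = 0.473), and XPA overlapped (-0.58). XRCC2 and DDB2 were singled out after their values were seen, as were WRN, ATM and XRCC3 above and FANCD2 and POLQ below.

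The Fanconi anaemia pathway, which unhooks interstrand crosslinks, had 1 of 10 genes called lower, beside 12.9% of all genes tested. Its median log2 fold change was -0.27. FANCG, a subunit of the core ubiquitin ligase complex (hg38 chr9:35073835-35080016, minus strand), measured 77.5, 74.7 and 82.4 CPM in control and 41.1, 28.3 and 40.2 CPM in CYT libraries. The control libraries lay close together and well above the CYT libraries. FANCG fell 2.14-fold (log2 fold change -1.10, SE 0.29, edgeR adjusted p = 0.0194), and leaving out control replicate 1 or 3 or CYT replicate 1 or 3 raised the adjusted p to between 0.0504 and 0.0743. FANCE, the core subunit that contacts FANCD2 and the most abundant of the group per length (17.4 FPKM), measured 67.9, 43.8 and 54.8 CPM in control and 43.6, 16.7 and 42.6 CPM in CYT libraries. FANCE was called with the replicate block (-0.79, edgeR adjusted p = 0.0463) and not without it (-0.69, adjusted p = 0.221), and was at -0.36 (adjusted p = 0.301) without CYT replicate 2.

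FANCD2 and FANCI form the clamp that the core complex ubiquitinates. FANCD2 measured 33.3, 50.9 and 36.4 CPM in control and 16.1, 30.1 and 15.9 CPM in CYT libraries. The groups did not overlap, and the log2 fold change of -0.96 missed the threshold (edgeR adjusted p = 0.0723) but passed it with the replicate block (adjusted p = 0.0111) and without CYT replicate 2 (-1.34, adjusted p = 0.00837). FANCI overlapped between groups, at 0.36 (edgeR adjusted p = 0.473). FANCB was lower (-0.45) and FANCF higher (0.59) in every CYT library, neither with a call, and FANCA (-0.44), FANCC (-0.11), FANCL (-0.07) and FANCM (0.41) had overlapping groups.

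End joining had 0 of 6 genes called by edgeR, beside 28.6% of all genes tested, with a median log2 fold change of -0.15. At an unadjusted p under 0.05 and by DESeq2, 1 gene (XRCC4) was lower, beside 19.4% and 10.9% of all genes. XRCC6, the Ku70 subunit that caps broken ends, had the highest level per length of the 56 genes (199 FPKM) and measured 982, 793 and 889 CPM in control and 938, 1335 and 1094 CPM in CYT libraries. XRCC6 overlapped between groups (0.34, edgeR adjusted p = 0.372), as did its Ku80 partner XRCC5 (-0.17) and the catalytic kinase subunit PRKDC (-0.02). XRCC4, the scaffold of the ligase LIG4, was lower in every CYT library and was called with the replicate block (-0.93, edgeR adjusted p = 0.0360) and not without it (-0.95, adjusted p = 0.0581). POLQ, the polymerase of the alternative end joining route, had the lowest level of the 56 genes (0.313 FPKM) and was at -1.002 (edgeR adjusted p = 0.209) with all libraries and at -1.92 (adjusted p = 0.00960) without CYT replicate 2. The level of POLQ in CYT replicate 2, 4.47 CPM, stood against 1.41 and 1.03 CPM in CYT replicates 1 and 3. LIG4 was at -0.12.

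Mismatch repair had 0 of 3 genes called by edgeR, beside 28.6% of all genes tested. At an unadjusted p under 0.05 and by DESeq2, 1 gene (MSH6) was higher, beside 21.5% and 14.8% of all genes. MSH6, which finds single mismatches and was the most abundant of the group per length (3.94 FPKM), measured 43.1, 59.9 and 51.6 CPM in control and 55.8, 157 and 107 CPM in CYT libraries. The lowest CYT library lay within the control range, and the log2 fold change of 1.05 missed the threshold (edgeR adjusted p = 0.0709) but passed it with the replicate block (0.94, adjusted p = 0.0244) and without CYT replicate 1 (1.35, adjusted p = 0.0312). Without CYT replicate 2 MSH6 was at 0.65 (edgeR adjusted p = 0.141). MSH3, which finds larger loops, was at -0.87 (edgeR adjusted p = 0.155) and was called lower with the block (-0.96, adjusted p = 0.0261) and without CYT replicate 2 (-1.38, adjusted p = 0.0188). PMS2 was at 0.50 without a call, and its pseudogenes PMS2P1 and PMS2CL had 74.8% and 53.7% as many counts, so its level is uncertain. POLH, the bypass polymerase for ultraviolet lesions and the member of translesion synthesis measured here, was at 0.09.

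With the replicate number as a block, 15 members were called lower (26.8%, beside 19.8% of all genes tested) and 3 higher (5.36%, beside 20.0%). The genes added were XRCC1, XRCC4, FANCD2, FANCE and MSH3 on the lower side and XRCC2, MSH6 and DDB2 on the higher side, and the 10 genes above were kept. Of the genes added, XRCC1, XRCC2, FANCD2, MSH3, MSH6 and DDB2 were called in 1 of 6 fits with 1 library left out, and XRCC4 and FANCE in 0 of 6. Without CYT replicate 2, 13 members were called lower (23.2%, beside 17.0%) and 2 higher (3.57%, beside 18.6%). That fit lost ERCC1 and added WRN, POLQ, FANCD2, MSH3, XRCC3 and DDB2. Leaving out any other library lowered the count and also the share of all genes called lower, to 4 members (beside 7.64% of all genes) without CYT replicate 3, 5 (beside 7.41%) without control replicate 1, 5 (beside 7.36%) without control replicate 3, 6 (beside 8.48%) without CYT replicate 1 and 9 (beside 10.2%) without control replicate 2. With GC content and exonic length corrected for together with the block, 20 members were called lower (35.7%, beside 25.0%) and 5 higher (8.93%, beside 20.7%). Beyond the genes of the block alone, that fit added RAD54L, WRN, POLQ, XPA and ERCC3 on the lower side and ATM and RNF8 on the higher side.

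The library numbered 2 in each group differed from the other 2 in step with the GC content of the genes. Across the 56 members, the log2 difference between replicate 2 and the mean of replicates 1 and 3 correlated with the GC content of the longest transcript with a Pearson r of -0.788 in control and -0.856 in CYT libraries. The points share their libraries and are not independent replicates, and over all genes tested the same r was -0.512 and -0.736. In the 28 members with the lower GC content (36.2% to 43.7%), 27 were higher in CYT replicate 2 than the mean of CYT replicates 1 and 3, with a median difference of 1.01, and in the 28 with the higher GC content (44.0% to 63.8%) 13 were, with a median of -0.011. Of the genes called lower, 8 were among the 28 with the higher GC content and 2 among the other 28. The share of all genes called lower in these GC ranges is not given here, so the split cannot be set against it. The log2 fold change itself had an r of -0.221 with GC content across the members. The part of GC content in the calls was not tested beyond the corrected fit above.

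**Figure D3:**
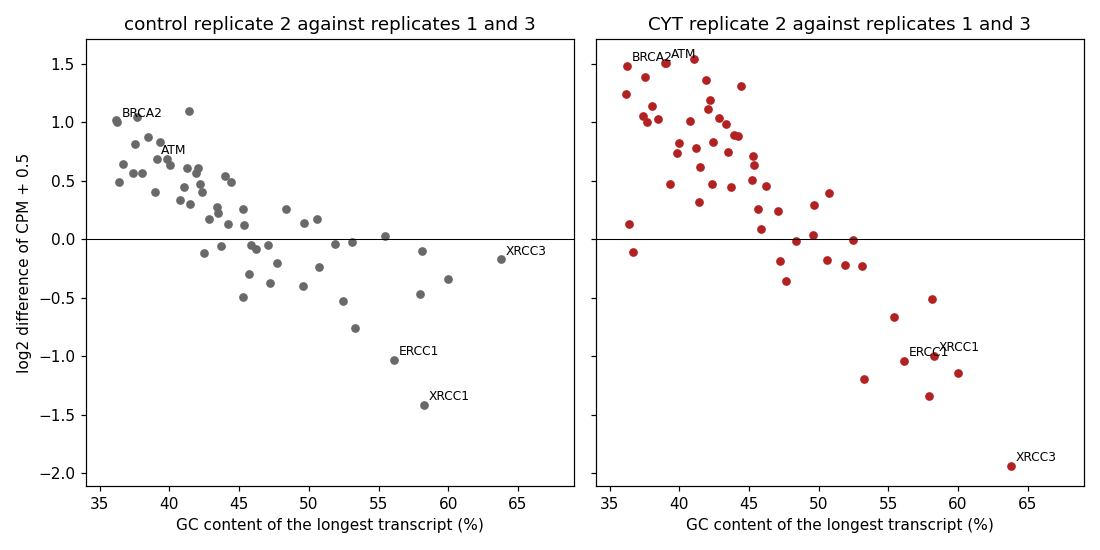
Difference between replicate 2 and the mean of replicates 1 and 3 (y axis, log2 of CPM + 0.5) against the GC content of the longest transcript (x axis, percent) for the 56 members, in control (left) and CYT (right) libraries. Points fall from left to right in both groups (Pearson r of -0.788 and -0.856 across genes), with AT-rich genes such as ATM and BRCA2 above 0 and XRCC1 and ERCC1 below.

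Ratios of FPKM between members that act in 1 complex or family were taken for 8 pairs, picked after the values were seen, so they are a description without a test. In 6 of the 8 pairs the ratios of the groups did not overlap. XRCC2 was 1.18, 2.40 and 1.69 times RAD51D in control and 9.82, 13.0 and 8.71 times RAD51D in CYT libraries. PARP2 was 0.107, 0.113 and 0.138 times PARP1 in control and 0.0374, 0.0403 and 0.0209 times PARP1 in CYT libraries. FANCD2 was 0.506, 0.541 and 0.397 times FANCI in control and 0.200, 0.186 and 0.195 times FANCI in CYT libraries. In these 3 pairs the CYT libraries lay well apart from the control libraries, and the FANCD2 ratio was even across the CYT libraries. BLM over WRN averaged 1.24 in control and 0.550 in CYT libraries, and NBN over MRE11 averaged 2.31 and 1.08, also without overlap. BARD1 over BRCA1 averaged 2.21 and 1.77 without overlap, and the ratios of LIG3 over XRCC1 (0.715 and 0.599) and XRCC5 over XRCC6 (0.229 and 0.155) overlapped.

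**Figure D4:**
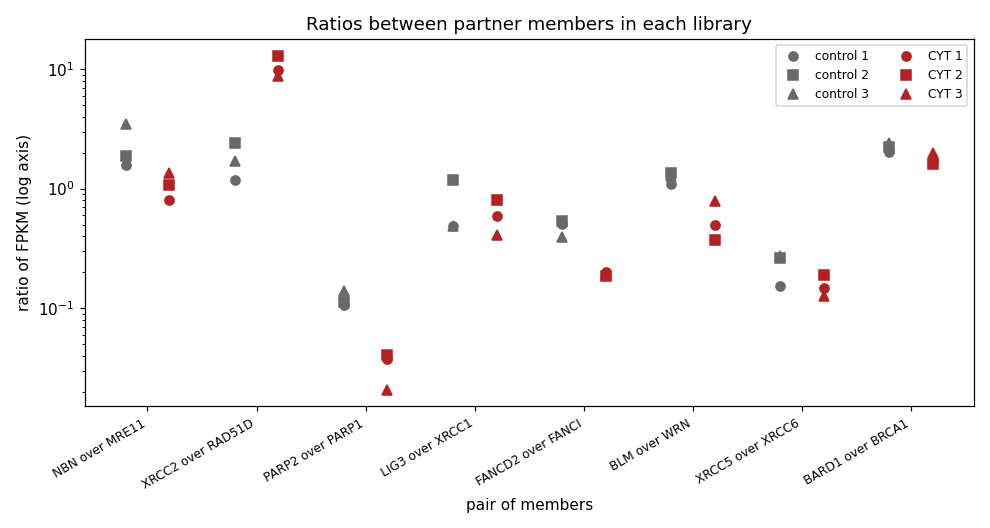
Ratio of FPKM between 8 pairs of members in each library (y axis, log axis; grey, control; red, CYT; circles, squares and triangles are replicates 1, 2 and 3). XRCC2 over RAD51D lies between 8.71 and 13.0 in CYT and between 1.18 and 2.40 in control libraries, and PARP2 over PARP1 lies lower in all CYT libraries.

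Many repair genes start back to back with another gene, and 29 of the 56 had a start within 1000 bases on the other strand, of which 23 had a tested partner. Of these partners 9 were called higher and 4 lower, beside 15.7% higher and 12.9% lower over all genes tested. CHEK2 and LIG3 were called lower beside partners that were called higher, HSCB (1.51) and CCT6B (2.16), and PARP2 and RAD52 were called lower beside partners called lower, RPPH1 (-3.56) and ERC1 (-1.25). RPPH1, the RNA of ribonuclease P, averaged 2.98 CPM in control and 0.240 CPM in CYT libraries. Next to members that were not called, TEX14 beside RAD51C (4.84), MAP1A beside TP53BP1 (3.93) and CIDECP beside FANCD2 (0.94) were called higher, and AIMP2 beside PMS2 (-1.22) and XPO5 beside POLH (-1.01) were called lower. The member and its partner had the same sign in 10 of 23 pairs. In all, 25 members were overlapped by a gene with more than 5% as many counts, some of them by a partner above. Since the use of strand is not stated, their levels are less certain.

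**Figure D5:**
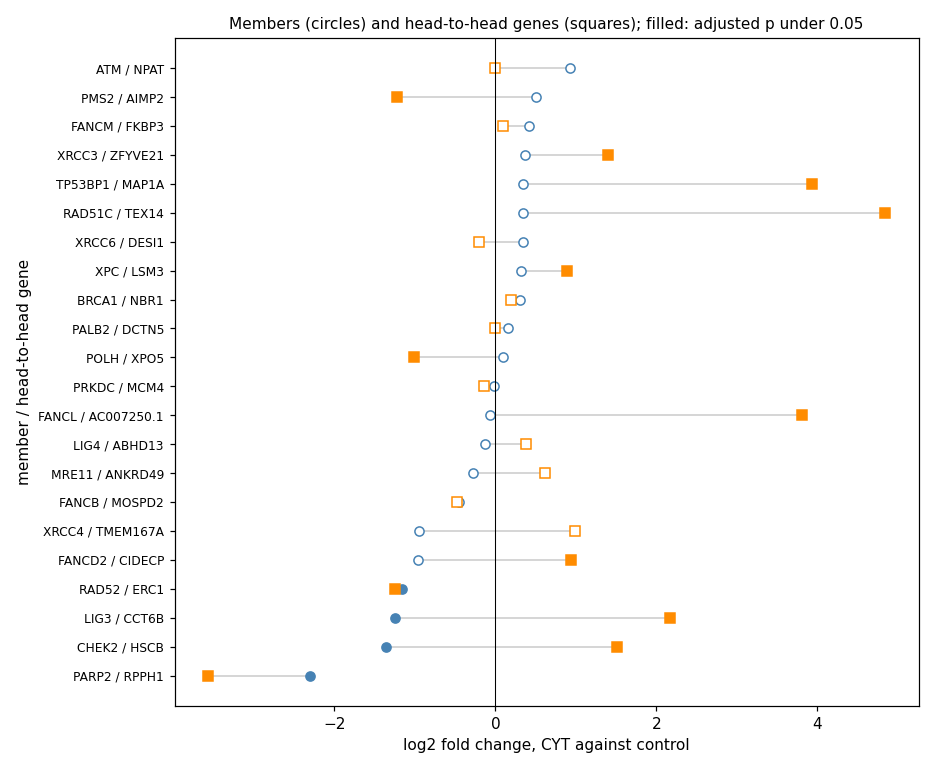
Log2 fold change of CYT against control (x axis) for 22 of the 23 members with a tested partner (circles) and the gene that starts within 1000 bases on the other strand (squares), joined by a line; filled symbols have an adjusted p under 0.05. TEX14 lies at 4.84 beside RAD51C at 0.34, while RPPH1 and PARP2 both lie below -2.

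The remaining genes of these pathways were counted from lists, each beside the same backgrounds of 15.7% called higher and 12.9% called lower. Of 33 further genes of recombination, end joining and crosslink repair, 7 were called higher (21.2%) and 4 lower (12.1%), with a median log2 fold change of 0.24. RMI1, a subunit of the complex in which BLM acts, was called higher (2.23, edgeR adjusted p = 0.00955), as was RMI2 (0.90, adjusted p = 0.0381), while TOP3A of the same complex was not (0.48). The other higher genes were GEN1 (2.50), RECQL (2.02), DMC1 (1.73), HELQ (1.47) and APLF (1.12). With the replicate block DMC1 lost its call (edgeR adjusted p = 0.0687). RTEL1, a helicase that takes apart displacement loops, was called lower (-3.43, edgeR adjusted p = 0.00171). SLX4, the Fanconi nuclease scaffold, and UBE2T, the conjugating enzyme that acts with FANCL, were called lower as well (-1.50 and -1.64), as was FAAP100 (-1.79). Of 27 further checkpoint and chromatin genes, 1 was called higher (3.70%) and 2 lower (7.41%), with a median of 0.24. The lower genes BABAM2 (-1.40) and UIMC1 (-1.07) encode parts of the BRCA1-A complex, whose other subunits BRCC3 (0.48), BABAM1 (0.38) and ABRAXAS1 (-0.45) were not called. Of 47 further genes of base excision, mismatch, nucleotide excision and bypass repair, 1 was called higher (2.13%) and 6 lower (12.8%), with a median of -0.23. Among the lower genes were NTHL1 (-2.57), GTF2H2 (-1.68), TDP1 (-1.31), GTF2H3 (-1.25) and OGG1 (-1.14). Of the TFIIH subunits on this list, GTF2H1 (-0.24), GTF2H4 (-0.30) and GTF2H5 (-0.21) were not called, and of the glycosylases UNG (0.70), MPG (-0.66), TDG (-0.98), MUTYH (-0.87), SMUG1 (-0.31), NEIL1 (-0.23), NEIL2 (-0.28) and NEIL3 (-0.71) were not called. With the replicate block TDG, MUTYH and MPG passed as lower (edgeR adjusted p = 0.0218, 0.0287 and 0.0425) and UNG as higher (0.0445). Of 24 genes of the S phase, when many repair genes are expressed, 4 were called higher (16.7%) and 2 lower (8.33%), with a median of 0.03.

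Transcripts that DNA damage is known to induce were counted apart from the repair genes. Of 17 tested, 6 were called higher by edgeR (35.3%, beside 15.7% of all genes tested) and 0 lower, with 7 higher and 1 lower at an unadjusted p under 0.05 and 7 higher and 0 lower by DESeq2. The summed level of the list was 638 to 774 CPM in control and 1038 to 1414 CPM in CYT libraries. GADD45B had the largest rise (2.24, edgeR adjusted p = 0.00100), followed by SESN1 (2.10), BTG2 (1.93), PPM1D (1.80), CDKN1A (1.51) and TNFRSF10B (1.14). MDM2 was at -0.97 without a call (edgeR adjusted p = 0.101), and with the replicate block MDM2 was called lower (adjusted p = 0.0117) and SESN2 higher (0.0148). Several of these genes also respond to stresses other than DNA damage.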

How the data were processed

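RNA was sequenced from MDA-MB-231-DR cells in 3 control and 3 CYT-treated samples, and groups came from the sample labels. The authors removed low-quality, adapter and ribosomal reads, aligned clean reads with Hisat2 (hg38) and deposited raw counts and FPKM per gene. Per the study's methods, FPKM came from Stringtie and genes were quantified with a program given as edge. Which program made the raw counts, its annotation and its use of strand are not given in the sources used here. The deposited FPKM is the count rescaled, with an implied gene length that varied by at most 0.0033% in a member.

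The members and gene lists were chosen with earlier results of these data known. Members were grouped by role. Values in every library were given for members called and for the member with the highest FPKM of each group of 3 or more, and other genes named with values were chosen after their values were seen. Counts were tested with edgeR 4.0.16 in R 4.3.3 (TMM, filterByExpr minimum count 10, quasi-likelihood test, Benjamini-Hochberg over all genes tested, no replicate term). CPM values are TMM-normalized. No 2 replicates were alike within sampling noise. Deviations from the group means went together in libraries of the same number (r across genes of 0.188, 0.458 and 0.124 for numbers 1 to 3, all over 0.1), which was taken as pairing from the label numbers, although the crossed pairs control 1 with CYT 3 (0.303) and control 3 with CYT 1 (0.201) were higher than the same-numbered pairs 1 and 3. Loci of 53 members equalled those of GENCODE 29. Alternatives were DESeq2 1.42.0, limma 3.58.1 on log2(FPKM + 1) and log2(FPKM + 0.1), other normalizations and filters, the replicate block, correction for GC content and length, and leaving out libraries. The edgeR and DESeq2 fits were also run on simulated counts, with an outcome that is not given here. Some items are not reported here. An exact permutation test of 3 against 3 cannot go below a two-sided p of 0.1.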

Additional observations from a re-analysis of the deposited data

How the results depend on the processing

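In 18 alternatives the 10 genes called lower kept their direction, and PARP2, BLM and RAD51D kept their call in all 18, ERCC2 in 17, CHEK2 and LIG3 in 16, FANCG in 14, ERCC1 in 10, NBN in 8 and RAD52 in 6. Of 1005 values for single genes, 845 kept direction and side of the threshold, 39 lost the call, 66 gained it and 55 changed sign, all of them in 16 genes without a call. The causes of these changes were not tested. Depth was lowest for POLQ, with 13 counts in its lowest library, and, among the genes called, for CHEK2 with 29 and RAD52 with 36.

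With the replicate block 18 members were called, 3 of them higher (39.9% of all genes were called, 20.0% higher). With the GC content and length correction 26 were called (6 higher, 20 lower, 16 past the fold criterion). That fit called 46.8% of all genes (21.1% higher, 25.7% lower), with 33.5% past the criterion. With the block added 25 were called (5 higher, 20 lower, 16 past it). There 45.7% of all genes were called (20.7% higher, 25.0% lower), with 32.7% past the criterion. Without replicate 2 of either group, chosen after seeing the data, 18 were called, 3 of them higher (41.0% of all genes were called, 21.5% higher). Members called higher were 3 with upper-quartile normalization, 2 with DESeq2, 1 with a minimum mean of 5 CPM and 1 with protein-coding genes only, where 18.5%, 14.8%, 12.8% and 13.4% of all genes were called higher. Members past the fold criterion were 6 with that minimum and 4 with limma on log2(FPKM + 1), where 23.7% and 15.3% of all genes passed it. With 1 library left out, from 4 to 15 were called, from 0 to 2 higher, from 4 to 13 lower and from 4 to 12 past the fold criterion, and the median ran from -0.44 to -0.064. Those fits called from 17.6% to 35.6% of all genes, with from 17.6% to 30.8% past the criterion. The fewest lower calls came without CYT replicate 3 (4), control replicate 1 (5), control replicate 3 (5) and CYT replicate 1 (6). Upper-quartile normalization moved the median of all genes to 0.16, and the GC content and length correction moved it to -0.10. DESeq2 and the fit with no filter had medians of 0.48 and 0.41, over larger sets of 32041 and 32060 genes.

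Values that changed sign with 1 library left out ranged from -0.055 to 0.33 for CHEK1, -0.71 to 0.065 for MRE11, -0.39 to 0.46 for RNF168, -0.33 to 0.59 for BRCA1, -0.45 to 0.67 for BRCA2, -0.30 to 0.42 for PALB2, -0.58 to 0.16 for BARD1, -0.38 to 0.58 for BRIP1, -0.19 to 0.58 for RAD51C, -0.30 to 0.13 for PRKDC, -0.74 to 0.31 for LIG4, -0.28 to 0.26 for FANCL, -0.041 to 0.86 for FANCM, -0.058 to 0.54 for FANCI and -0.10 to 0.29 for POLH. With upper-quartile normalization BARD1 was 0.084, PRKDC 0.14, LIG4 0.019, FANCC 0.038 and FANCL 0.079. With a minimum mean of 5 CPM BARD1 was 0.037, PRKDC 0.085 and FANCL 0.031, and with protein-coding genes only they were 0.0017, 0.058 and 0.0029. With library totals alone PRKDC was 0.022. With the GC content and length correction PALB2 was -0.035, PRKDC 0.038, FANCC 0.024 and POLH -0.12, and with the replicate block added they were -0.048, 0.053, 0.034 and -0.11, with RNF168 at -0.016. Without replicate 2 of either group RNF168 was -0.16, BRCA1 -0.063, PALB2 -0.21, BRIP1 -0.0028, FANCC 0.036 and FANCL 0.12.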
